A study of Mus musculus with 12 samples.

Results

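Malat1, Neat1 and 8 host genes of small nucleolar RNAs were followed in mouse limb buds of Mettl14 control and knockout embryos. The genes were Malat1, Neat1, Gas5, Snhg1, Snhg3, Snhg4, Snhg5, Snhg6, Snhg8 and Snhg12. They were taken by symbol from an expression table of 31723 gene rows, and the 10 symbols stood on 11 rows because Snhg4 had 2. Peaks were taken by the gene identifiers of those rows, which gave 16 of 41196 peaks in the control list and 13 of 46758 in the knockout list.

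The tissue was mouse limb bud at E12.5 (days of embryonic development). Control embryos carried 1 floxed and 1 wild-type Mettl14 allele (Mettl14 wt/flox, called cHet), and knockout embryos carried 2 floxed alleles (Mettl14 flox/flox, called cKO). Both genotypes share at least 1 floxed allele, and the sources used here name neither the Cre driver and its cells nor any pooling of embryos. RNA was sequenced before (input) and after (IP) precipitation with an antibody against N6-methyladenosine (m6A), with 3 biological replicates of each per genotype. Expression values cover the 6 input libraries, and the IP is represented by 1 peak list per genotype.

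Malat1 and Neat1 are long non-coding RNAs kept in the nucleus, where Malat1 gathers in nuclear speckles and Neat1 builds paraspeckles. Malat1 is among the best-known m6A-carrying non-coding RNAs. The snoRNA host genes carry small nucleolar RNAs in their introns. Once these are cut out, C/D box snoRNAs guide ribose methylation and H/ACA box snoRNAs guide pseudouridylation of other RNAs. The spliced host transcripts are often short-lived, in part through nonsense-mediated decay, and in mammals many begin with a terminal oligopyrimidine tract (5' TOP), a C followed by pyrimidines at the first transcribed base.

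The transcript starts are shown because this tract is a feature by which host genes are recognised. RefSeq (GRCm38.p6) promoters matched 7 of the 10 genes, Gas5 with 2 starts. Each line holds 20 bases before and 30 bases from the start, 5' to 3' on the transcribed strand. Capitals mark a C followed by at least 4 pyrimidines that begins within 10 bases of the start, searched on the transcribed strand only.
Malat1 (chr19:5802643-5802692, minus strand): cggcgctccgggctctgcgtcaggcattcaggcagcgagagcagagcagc
Gas5, upstream start (chr1:161034581-161034630, plus strand): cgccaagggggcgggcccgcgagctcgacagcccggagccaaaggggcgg
Gas5, downstream start (chr1:161035146-161035195, plus strand): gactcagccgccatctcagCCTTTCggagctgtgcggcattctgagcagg
Snhg1 (chr19:8723467-8723516, plus strand): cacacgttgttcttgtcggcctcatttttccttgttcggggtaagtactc
Snhg3 (chr4:132353657-132353706, minus strand): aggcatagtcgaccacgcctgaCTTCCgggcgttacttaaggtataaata
Snhg5 (chr9:88522868-88522917, minus strand): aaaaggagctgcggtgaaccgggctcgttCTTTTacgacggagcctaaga
Snhg8 (chr3:123508307-123508356, minus strand): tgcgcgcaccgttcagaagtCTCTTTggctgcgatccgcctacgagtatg
Snhg12 (chr4:132308658-132308707, plus strand): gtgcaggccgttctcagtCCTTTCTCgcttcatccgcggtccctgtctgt

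The tract was found at 5 of these 8 starts, and at 30.7% of the 32851 promoters of the same length. Only the Snhg8 match began exactly at the RefSeq start. Snhg12 began 2 bases before it, the downstream Gas5 start 1 base before it, Snhg3 2 bases after it and Snhg5 9 bases after it. Malat1, the upstream Gas5 start and Snhg1 had no match by this rule. A TATA box (TATAAA on the transcribed strand, within 100 bases before the start) stood before Snhg5 and Snhg8, against 3.8% of all promoters.

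Mettl14 (chromosome 3, 123368297 to 123386108, mm10) stood at 4.39 to 5.08 FPKM in cHet and at 2.63 to 3.07 in cKO. Its mean in cKO was 59.8% of that in cHet. FPKM are fragments scaled to gene length and library total. The libraries correlated at 0.976 to 0.989 within and 0.95 to 0.971 between genotypes across 13575 genes, and genes are no independent replicates. Limb mesenchyme markers were present (summed 404.4 to 415.9 FPKM over 10 genes in cHet, 536.5 to 636.3 in cKO). Of 9 tested mesenchyme markers, 6 rose and 0 fell. Chondrogenic markers summed to 165.2 to 178.3 FPKM in cHet and 98.73 to 112 in cKO, and 5 of 6 fell. Skeletal muscle markers summed to 349.2 to 378.6 FPKM in cHet and 203.6 to 330.1 in cKO, and 4 of 5 tested fell, as did 2 of 6 endothelial markers. Over all tested genes, 18.7% rose and 17.5% fell. The part of these markers' cell types in the members' values was not tested. In bulk tissue, fewer cells of a type and less RNA per cell cannot be told apart.

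Few of these rows were called different between genotypes in the input libraries, and Neat1 was too low to be tested. A row that did not pass is not thereby shown to be unchanged. Of 10 rows with a mean of at least 1 FPKM, 1 rose, 0 fell and 9 did not pass limma's test at an adjusted p under 0.05. In the same fit, 36.2% of 13575 genes passed, as did 32.2% of 171 tested rows that hold a lincRNA transcript. The members' median log2 change was 0.03, and the median absolute change was 0.13, against 0.21 over all tested genes. The genotypes did not overlap for 2 of the 10 rows, against 51.2% of all tested genes, and 2 rows had an unadjusted p under 0.05, against 47.3%. Rises made up 51.6% of all calls, or 18.7% of tested genes, and falls 17.5%. With every library rescaled to the same total, 5251 of the 13575 genes passed, and rises made up 73.7% of these calls. Of the 10 member rows 3 then passed, with Snhg4 at 0.31 (adjusted p = 0.0146) and Snhg5 at 0.34 (adjusted p = 0.0409). Changes are on the log2(FPKM + 1) scale, p-values are limma's, two-sided and Benjamini-Hochberg adjusted over all tested genes, and SDs are over 3 libraries.

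**Figure D1:**
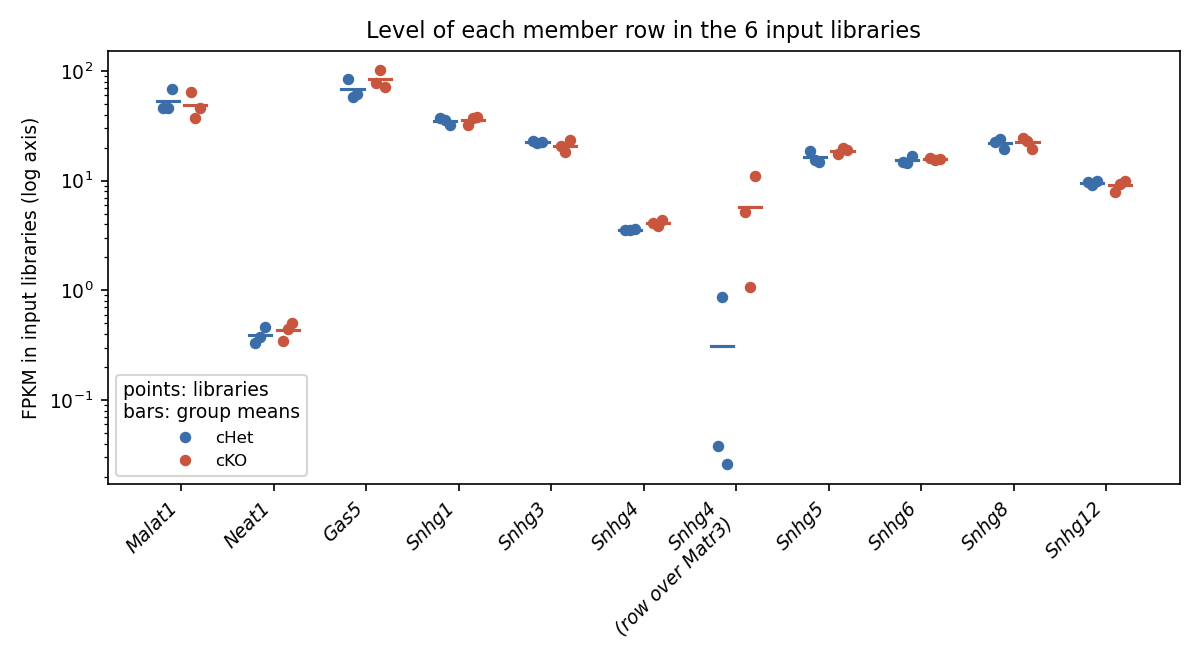
FPKM (log axis) of the 11 gene rows in the 6 input libraries, with points for single libraries and bars for genotype means. Gas5 and Malat1 were the most abundant, Neat1 reached at most 0.504 FPKM, and the Snhg4 row overlapping Matr3 ranged from 0.0258 to 11.1 FPKM.

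By mean level over 6 libraries the order was Gas5 (75.7 FPKM), Malat1 (51.2), Snhg1 (35.4), Snhg8 (22.1), Snhg3 (21.6), Snhg5 (17.5), Snhg6 (15.5), Snhg12 (9.31), Snhg4 (3.82) and Neat1 (0.408). Neighbours in this order from Gas5 to Snhg1, and from Snhg8 to Snhg6, overlapped in their library values. Clear gaps lay between Snhg1 and Snhg8, between Snhg6 and Snhg12, and on either side of Snhg4. Gas5 ranked 490 from the top and Malat1 774 among the 31723 rows, whereas Neat1 ranked 16041.

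Malat1 (chromosome 19, 5795690 to 5802672, minus strand) had 45.5, 46.1 and 68.8 FPKM in cHet replicates 1 to 3, against 63.7, 37.3 and 46 in cKO. One library of each genotype, cHet replicate 3 and cKO replicate 1, stood above the other 4, and the genotypes overlapped. The log2 change was -0.13 (95% interval -0.67 to 0.41, adjusted p = 0.678), so a moderate change in either direction lies within its interval. The 3 tested genes with profiles nearest to Malat1 were Gm8615, Nrsn2 and Myl6b. Their centred log2 values differed from those of Malat1 by a root mean square of 0.103, 0.106 and 0.132 over 6 libraries.

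Neat1 (chromosome 19, 5824708 to 5845478, minus strand) lies upstream of Malat1 on the same strand and is made as a short and a long isoform with a shared 5' end. It had 0.327, 0.373 and 0.461 FPKM in cHet replicates 1 to 3, against 0.343, 0.442 and 0.504 in cKO. All 6 values were under the minimum for testing, and the genotypes overlapped. The row is given with 1 transcript over its whole 20771 bases, so the level is an average over the long isoform. The profiles nearest to Neat1 were those of Nif3l1, Tnpo2 and Hnrnpl (root mean square difference 0.017, 0.018 and 0.02), where adding 1 before the logarithm flattens a gene this low.

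Gas5 (chromosome 1, 161034422 to 161038539), host of a series of C/D box snoRNAs and a long-known growth-arrest transcript, was the highest member. It had 84.2, 58.3 and 61.4 FPKM in cHet replicates 1 to 3, against 77.8, 101 and 72 in cKO. The highest library was cKO replicate 2, but cHet replicate 1 exceeded the other cKO libraries. The log2 change was 0.30 (95% interval -0.12 to 0.71, adjusted p = 0.22). The nearest profiles were those of Spata5l1, Trim12c and Ankrd26 (root mean square difference 0.108, 0.109 and 0.113).

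Snhg1, host of the Snord25 to Snord31 group and Snord22, had 37.3, 35.7 and 32 FPKM in cHet replicates 1 to 3, against 32.2, 37.5 and 38 in cKO. Its change was 0.03 (95% interval -0.17 to 0.24, adjusted p = 0.777). Snhg5, host of the Snord50 genes, had 18.7, 15.3 and 14.9 FPKM in cHet replicates 1 to 3, against 17.4, 19.9 and 19.1 in cKO. Here 2 cKO libraries lay above all cHet libraries and the third below cHet replicate 1 (log2 change 0.20, 95% interval -0.03 to 0.43, adjusted p = 0.148). Without cHet replicate 1 the Snhg5 change was 0.30 with an adjusted p of 0.0292, within a range of 0.0292 to 0.351 over 14 alternatives.

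Snhg3, host of the H/ACA box gene pair Snora73a and Snora73b, had 23.1, 22.1 and 22.3 FPKM in cHet replicates 1 to 3, against 20.5, 18.3 and 23.3 in cKO. The cHet values lay close together and the cKO values spanned them (log2 change -0.12, 95% interval -0.33 to 0.09, adjusted p = 0.322). Snhg12, host of 3 H/ACA box snoRNAs and Snord99, had 9.74, 9.04 and 9.98 FPKM in cHet replicates 1 to 3, against 7.91, 9.32 and 9.85 in cKO, and it too overlapped (log2 change -0.08, 95% interval -0.29 to 0.12, adjusted p = 0.487). Snhg6, host of Snord87, had 14.8, 14.5 and 16.6 FPKM in cHet replicates 1 to 3, against 15.9, 15.4 and 15.6 in cKO. Its interval was among the narrowest, from -0.12 to 0.18 around a change of 0.03 (adjusted p = 0.745). Snhg8, host of Snora24, had 22.7, 23.9 and 19.4 FPKM in cHet replicates 1 to 3, against 24.7, 22.8 and 19.4 in cKO (log2 change 0.02, 95% interval -0.25 to 0.28, adjusted p = 0.91).

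**Figure D2:**
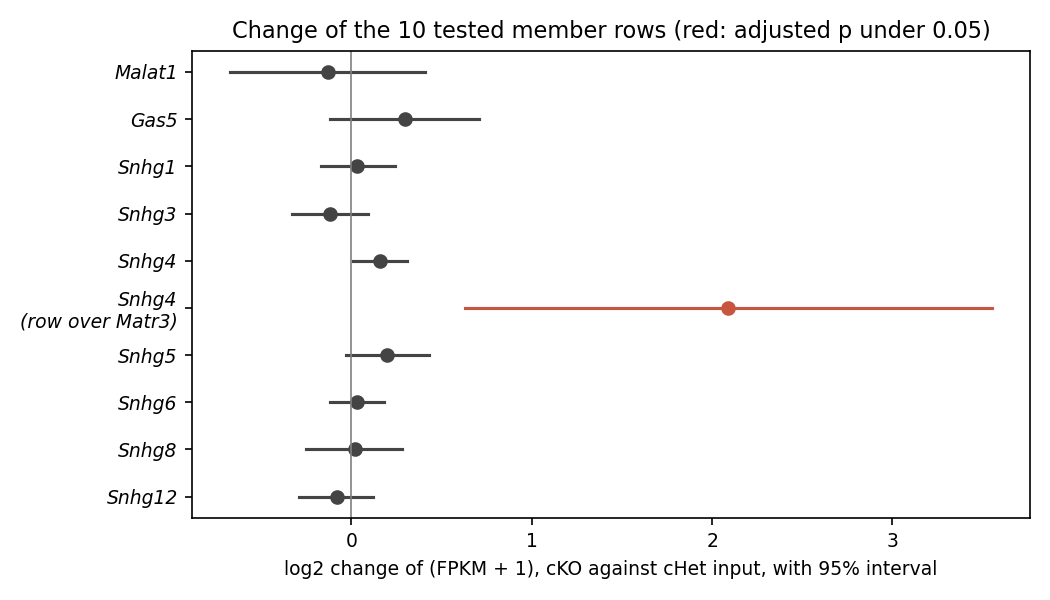
Log2 change of FPKM + 1 from cHet to cKO input for the 10 tested gene rows, with limma's 95% interval. The Snhg4 row overlapping Matr3 alone passed the threshold (red), with an interval of 0.63 to 3.55, and the intervals of 8 of the other 9 rows include 0.

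The rise belonged to 1 of the 2 rows named Snhg4. This row (ENSMUSG00000117694, chromosome 18, 35553404 to 35587708) begins at Snhg4 and runs on over Matr3, whose own row spans 35562138 to 35593835 on the same strand, and it lists protein-coding transcripts. It had 0.0383, 0.872 and 0.0258 FPKM in cHet replicates 1 to 3, against 5.19, 1.06 and 11.1 in cKO. The genotypes did not overlap, but cKO replicate 2 and cHet replicate 2 stood next to each other, and the cKO libraries differed by a factor of 10.4. The log2 change was 2.09 (SE 0.614, 95% interval 0.63 to 3.55, adjusted p = 0.0369). Leaving out any library other than cKO replicate 2 took the adjusted p above 0.05, to between 0.0591 and 0.0966, and without cKO replicate 2 it was 0.0104. The sources used here do not say how fragments were divided between overlapping rows, so this level is uncertain. Matr3, which encodes a nuclear matrix protein, had 67.9, 56.1 and 49.9 FPKM in cHet replicates 1 to 3, against 56.2, 62.4 and 67.7 in cKO, and its adjusted p was 0.534.

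The other row (ENSMUSG00000117869, 35553371 to 35558316) matches the RefSeq locus of Snhg4, 35553410 to 35558316, which hosts Snora74a. It had 3.52, 3.51 and 3.61 FPKM in cHet replicates 1 to 3, against 4.08, 3.87 and 4.35 in cKO. Every cKO library lay above every cHet library, but the step was small. The log2 change of 0.16 (95% interval 0.01 to 0.31) did not pass over all genes (adjusted p = 0.0821). Relative to cHet, mean cKO levels stood at 116% for this row and at 1850.8% for the row overlapping Matr3.

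The snoRNAs themselves were hardly covered. Within the hosts lay 17 rows with a symbol starting Snord, Snora or Scarna, 66 to 205 bases long. Of these, 13 stayed under 1 FPKM in every library. Small RNA rows under other symbols, such as the snoRNA gene Gm50452 in Gas5, were not counted. The highest of the 17 were Snord87 in Snhg6 (3.92 to 8.86 FPKM), Snora73b in Snhg3 (4.28 to 7.07 FPKM) and Snora73a (1.73 to 3.25 FPKM). None of these 3 passed limma's test (adjusted p = 0.229, 0.508 and 0.565). RNAs this short are poorly recovered by standard RNA-seq libraries. Other short non-coding RNAs (such as Rn7sk and Rmrp) varied widely between libraries, with summed levels of 70.6 to 256.9 FPKM in cHet and 19.89 to 141.6 FPKM in cKO. Of 8 tested rows of this kind (Rmrp stood on 2) 0 passed limma's test, with a median log2 change of -1.04. Their part in the members' values was not tested.

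The antibody peaks are the authors' own calls, 1 list per genotype with no replicate, so differences between the lists carry no test. Enrichment is the authors' log2 ratio of IP over input at a peak. By gene identifier, cHet peaks on the members had a median enrichment of 1.58, against 1.87 over all cHet peaks, and cKO peaks had 1.93, against 1.59. The lists hold different sets of member peaks, so these medians do not measure a change at the same sites. Over the 11 member pairs sharing at least 50% of both peaks, the median difference of cKO from cHet was -0.02. Of the 16 cHet peaks 15 overlapped a cKO peak by at least 1 base, against 88.0% of all cHet peaks, and all 13 cKO peaks overlapped a cHet peak, against 80.5%. When at least 50% of both peaks had to be shared, 11 cHet peaks kept a counterpart, 68.8%, against 62.2% of all cHet peaks, and 11 cKO peaks did, 84.6%, against 54.7%. Of the 11 rows, 8 held a cHet peak and 7 a cKO peak by identifier, and both counts include Neat1, which was not tested. Among all tested genes 89.1% did in cHet and 90.3% in cKO, and 83.0% and 87.1% of tested rows with a lincRNA transcript.

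Malat1 carried 3 peaks in each list at nearly the same positions, all annotated to non-coding exons. The broadest, chr19:5800840-5802664 in cHet, began 8 bases from the 5' end of the gene and covered 1825 bases. Its log2 enrichment was 3.13 in cHet and 3.07 in cKO, higher than 86.2% of the cHet list and 95% of the cKO list. A peak in the middle of the transcript (chr19:5798865-5799339 in both lists) had 1.48 in cHet and 1.26 in cKO. A peak at the 3' end (chr19:5795690-5795889 in cHet) had 1.48 and 1.27. Together the cHet peaks covered 35.8% of the gene and the cKO peaks 37.2%.

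**Figure D3:**
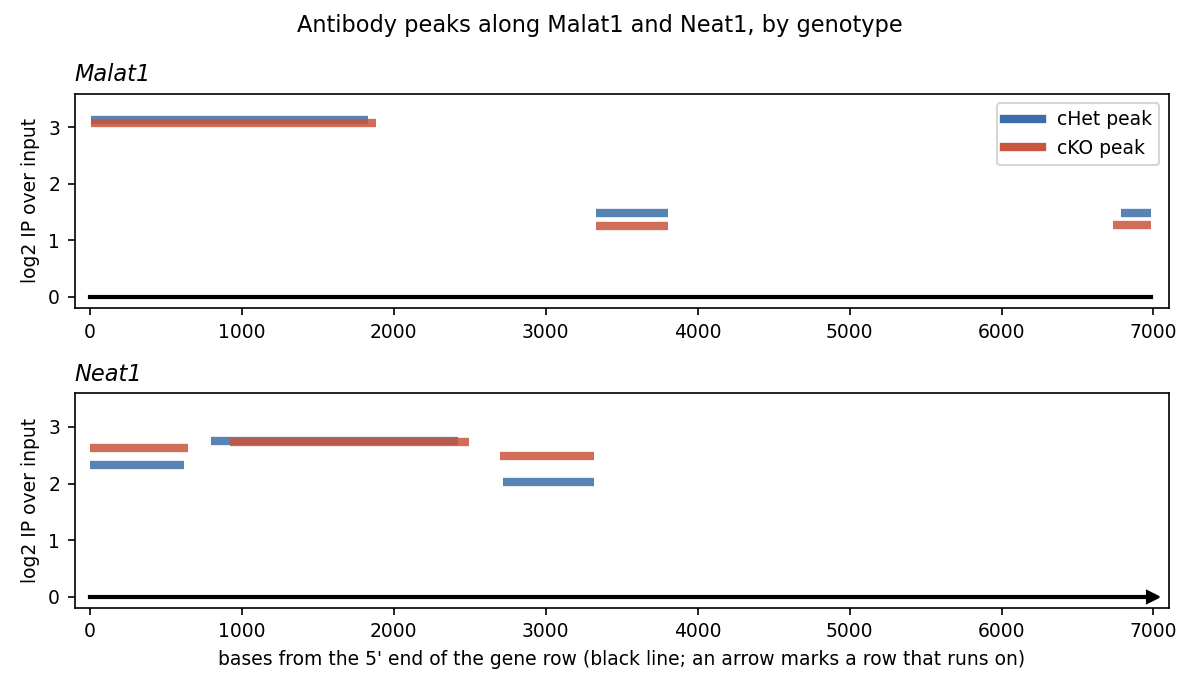
Log2 enrichment of IP over input of each antibody peak (height) along Malat1 and Neat1, in bases from the 5' end of the gene row, for the cHet and cKO lists. Both genotypes had 3 peaks on each RNA, and the strongest Malat1 peak, at 3.13 and 3.07, lay at the 5' end.

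The 5' Malat1 peak differed between genotypes by -0.06, while strong peaks elsewhere were mostly lower in cKO. Among 4741 peak pairs with a cHet log2 enrichment of at least 3 the median difference of cKO from cHet was -0.88, and 86.4% were lower in cKO. A stratum set by the cHet value alone takes in values that happened to be high in cHet. Among 2476 pairs with a mean over both lists of at least 3, the median difference was -0.26 (quartiles -0.8 and 0.24). The Malat1 value lies inside those quartiles. These strata were chosen after the values were seen. A peak of the opposite strand under Gm37376 (chr19:5801941-5802390) lies inside the 5' Malat1 peak at 3.07 in cHet and 3.22 in cKO. Gm37376 was listed at 0 in 5 of the 6 input libraries and at 0.000754 FPKM in the other, and since the use of strand is not given, the IP signal of the 2 strands cannot be told apart.

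Neat1 also carried 3 peaks in each list, all ending at most 3320 bases from the 5' end of a row of 20771 bases. The peak at the 5' end (chr19:5844858-5845478 in cHet) had a log2 enrichment of 2.32 in cHet and 2.63 in cKO. The middle peak (chr19:5843058-5844682 in cHet) had 2.76 and 2.74, and the third (chr19:5842158-5842757 in cHet) had 2.03 and 2.49. The 3 cHet peaks of Neat1 lay above the median of 1.87 over all cHet peaks, and 0 of the 3 was lower in cKO by more than 0.02. The low input level of Neat1 is an average over the whole row, and the input at the peaks alone is not known here.

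**Figure D4:**
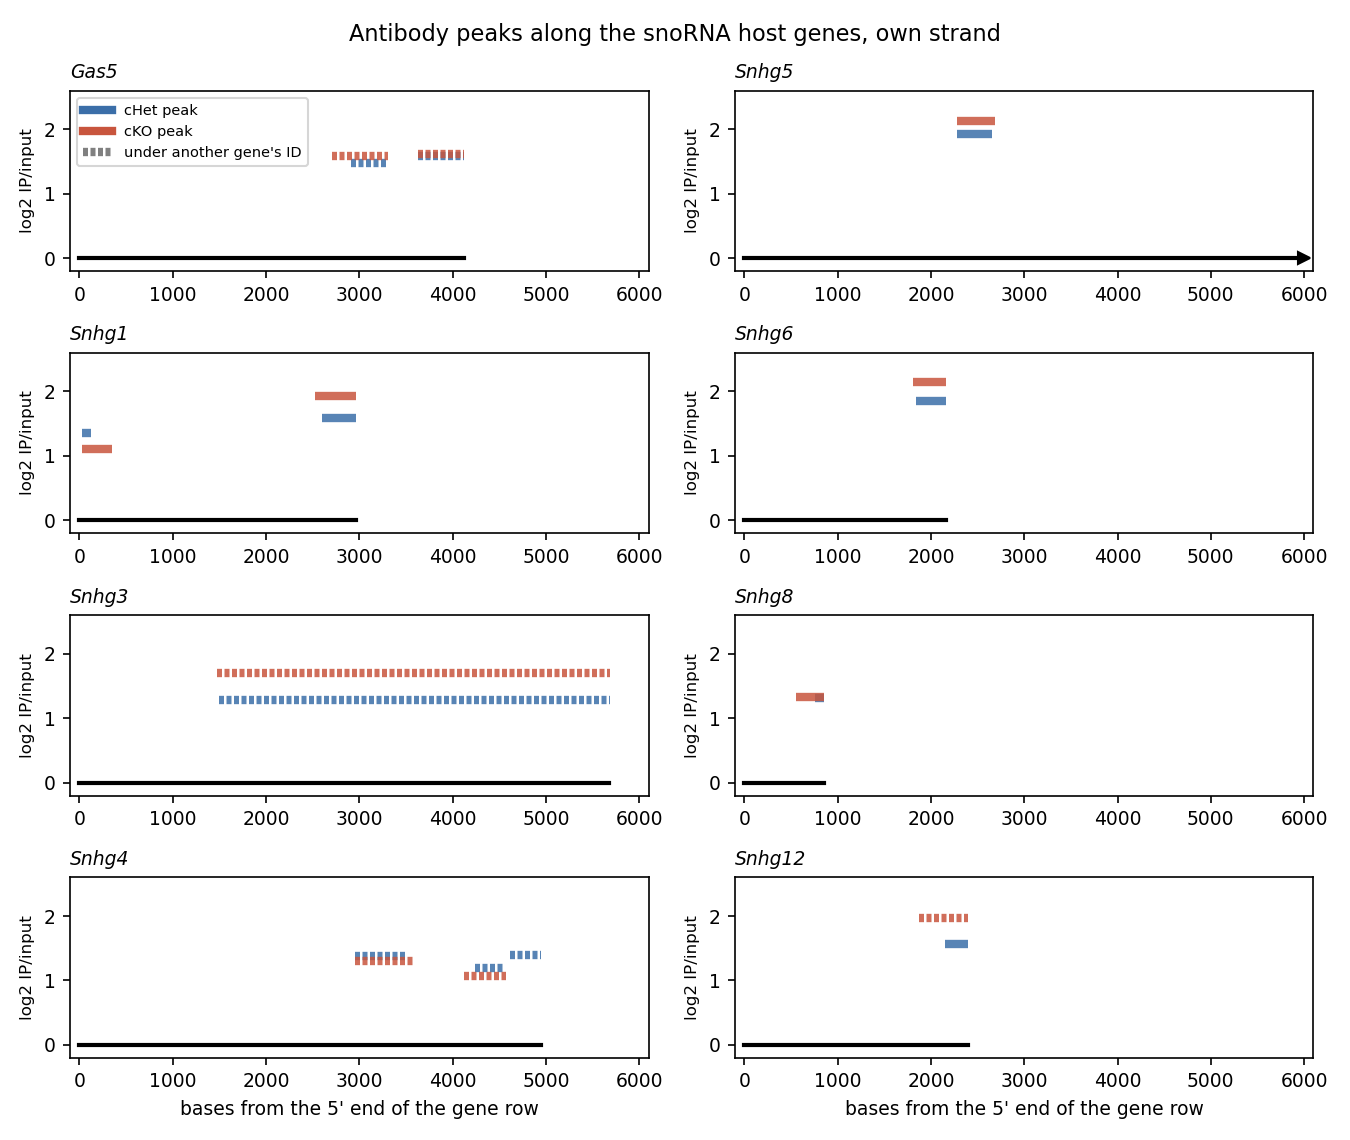
Log2 enrichment of IP over input of antibody peaks on the strand of 8 snoRNA host genes, in bases from the 5' end of each row, with dashed bars for peaks that the lists file under another gene. Peaks of Gas5, Snhg6, Snhg8 and Snhg12 and 1 of the Snhg1 peaks lay in the last part of their rows, while the other Snhg1 peak lay near the 5' end and the Snhg5 peak 2284 bases from the 5' end of a row of 28295.

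Within each list, the peaks of the host genes by identifier were weaker than the 5' Malat1 peak and the Neat1 peaks. Those of Snhg5 and Snhg6 and the 3' peak of Snhg1 exceeded the other Malat1 peaks in both lists. Snhg5 had 1 peak (chr9:88520904-88521278 in cHet) with a log2 enrichment of 1.92 in cHet and 2.13 in cKO, which spans the RefSeq 3' end at 88521052. Snhg6 had 1 peak (chr1:9941959-9942283 in cHet) with 1.85 and 2.15, and Snhg8 had 1 (chr3:123507552-123507651 in cHet) with 1.32 and 1.33. Both of these end exactly at the 3' end of the gene row, which for Snhg6 lies beyond the RefSeq 3' end at 9942025. Snhg1 had a 3' peak (chr19:8726075-8726443 in cHet) with 1.59 and 1.93 and a weaker one 25 bases from its 5' end (chr19:8723500-8723599 in cHet) with 1.35 and 1.1. The 5' peak of Snhg1 begins inside the stretch of the start printed above.

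For some host genes without a peak by identifier, the lists hold peaks at the same position under another gene. Gas5 had 0 peaks by identifier in both lists. By position it had 2 on its own strand in each, filed under the snoRNA genes Gm50452 and Snord47. The first (chr1:161037329-161037728 in cHet) had 1.48 in cHet and 1.58 in cKO, and the second (chr1:161038054-161038539 in both), which ends at the last base of Gas5, had 1.58 and 1.61. Snord47 is 77 bases long and stood at 0.0356 to 0.0486 FPKM, while the peak filed under it is 486 bases long.

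Snhg12 had 1 cHet peak (chr4:132310773-132311022, log2 enrichment 1.57) and 0 cKO peaks by identifier. The cKO list holds a wider peak at the same place (chr4:132310498-132311022) with 1.97, filed under the snoRNA gene Snord99. For Snhg3 the peaks at its position on its strand were filed under Rcc1 (chr4:132348000-132352186 in cHet, 1.29 in cHet and 1.7 in cKO). Rcc1 overlaps Snhg3 on the same strand, so this signal cannot be assigned to either. A peak of the opposite strand under Gm17300 lies there too, at 1.4 and 1.75.

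For Snhg4, every peak by identifier was filed under the row overlapping Matr3, 4 in cHet and 2 in cKO. Of these, 3 cHet peaks and both cKO peaks lie inside the shorter Snhg4 row. The first (from base 35556320 on) had 1.38 in cHet and 1.3 in cKO, and the second (from base 35557614 in cHet) had 1.2 and 1.07. The third cHet peak, at the 3' end of the shorter row (chr18:35557989-35558313), had 1.4 and was the only member peak by identifier that met no cKO peak. The fourth cHet peak, chr18:35573527-35577801, lies within Matr3. Its cKO counterpart, 28132 bases wide, was filed under Matr3.

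By position on their own strand, 6 of 8 host rows had a cHet peak ending within 10 bases of the 3' end, and 5 of 8 had such a cKO peak. Over 171 tested rows with a lincRNA transcript the shares were 64.9% and 69.0%, so the host genes are close to the background of such RNAs. By identifier, 31.2% of the members' cHet peaks and 30.8% of their cKO peaks ended there, against 29.4% and 28.7% of all peaks on non-coding exons. The enrichment of the 3' peaks was at least as high in cKO as in cHet for Gas5, Snhg1, Snhg6, Snhg8 and Snhg12, by 0.02, 0.34, 0.31, 0.01 and 0.40, while the Snhg4 3' peak of cHet (1.4) met no cKO peak. The Snhg8 and Snhg12 pairs shared less than 50% of the wider peak. Among all 12846 pairs sharing at least 50% of both peaks and with a mean enrichment from 1 to 2, 51.2% were higher in cKO and the median difference was 0.01 (quartiles -0.26 and 0.23).

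**Figure D5:**
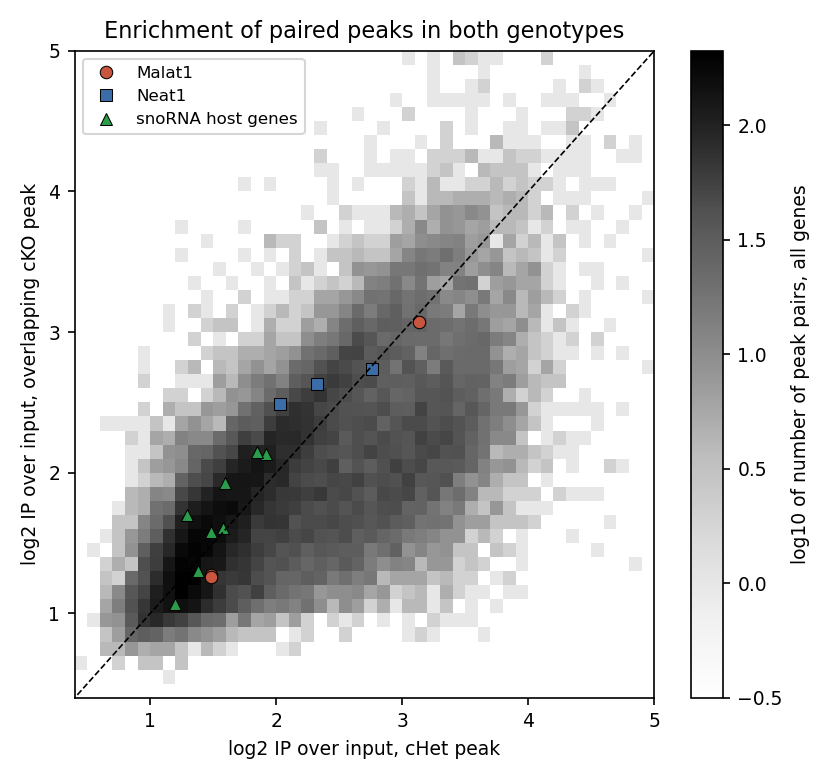
Log2 enrichment of cHet peaks against that of the cKO peaks sharing at least 50% of both, for all genes (grey, by the log10 number of pairs) and for Malat1, Neat1 and the host genes, including the own-strand pairs of Gas5 and Snhg3 found by position. The coloured points lie on either side of the dashed line of equal enrichment. The 5' Malat1 peak, at 3.13 and 3.07, lies close to it, and a Neat1 peak, at 2.03 and 2.49, lies furthest from it.

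Of the 11 member pairs by identifier, 5 were higher and 6 lower in cKO, with a median difference of -0.02, against -0.08 and 56.6% lower over all 25625 pairs. The share is near the background.

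The proteins that work with these RNAs were tallied from lists written with earlier results of these data known, and each count is to be read against the 36.2% of all tested genes that passed, 18.7% by rising and 17.5% by falling. Of 18 assembly factors and core proteins of C/D and H/ACA snoRNPs, 2 rose, 4 fell and 12 did not pass (median log2 change -0.03). Nhp2, an H/ACA core protein, rose from 32.3 to 39.7 FPKM (adjusted p = 0.00982) and the assembly chaperone Shq1 rose from 1.27 to 1.92 FPKM (adjusted p = 0.00835). Pih1d1, of the R2TP assembly complex, fell from 15 to 9.86 FPKM (adjusted p = 0.00363), and the ATPase Ruvbl1 of the same complex fell from 37.9 to 30.9 FPKM (adjusted p = 0.0197).

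Of 16 paraspeckle proteins, 2 rose, 0 fell and 14 did not pass. Pspc1, a core paraspeckle protein, rose from 11.8 to 17.3 FPKM (adjusted p = 0.00338), and Hnrnph3 rose from 34.4 to 42.1 FPKM (adjusted p = 0.0192). Of 17 nuclear speckle proteins, 2 rose, 0 fell and 15 did not pass. These were the speckle scaffold genes Srrm2, from 43.4 to 69.5 FPKM (adjusted p = 0.00781), and Son, from 35.9 to 56.4 FPKM (adjusted p = 0.00317). The median changes of these lists were 0.00 and -0.04. Calls among paraspeckle proteins ran from 1 to 6 over the alternatives.

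Of 16 factors of nonsense-mediated decay, 3 rose, 0 fell and 13 did not pass (median 0.13). Smg8 rose from 9.46 to 17.1 FPKM (adjusted p = 6.6e-04), and the kinase gene Smg1 rose from 4.89 to 6.22 FPKM (adjusted p = 0.0356). Of 14 nuclear RNA decay factors, 1 rose, 2 fell and 11 did not pass (median 0.04). Zcchc8, of the nuclear exosome targeting complex, rose from 13.6 to 17.8 FPKM (adjusted p = 0.00485). Exosc10, the nuclear exosome nuclease, fell from 30.9 to 26.5 FPKM (adjusted p = 0.0214), and the cap-binding gene Ncbp1 fell from 40.4 to 33.9 FPKM (adjusted p = 0.0201).

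Of 24 tested rows of other snoRNA host genes, 2 rose, 6 fell and 16 did not pass (median -0.12). Zfas1, a host of C/D box snoRNAs, rose from 19.6 to 26.5 FPKM (adjusted p = 0.00316), and Snhg10 rose from 2.45 to 3.25 FPKM (adjusted p = 0.0474). Snhg18 fell from 18 to 12.6 FPKM (adjusted p = 0.0101), and the ribosomal protein gene Rpl23a fell from 911 to 670 FPKM (adjusted p = 0.00903). Of 17 tested other long non-coding RNAs, 1 rose, 6 fell and 10 did not pass (median -0.02). H19, an imprinted RNA, fell from 2996.8 to 1635.7 FPKM (adjusted p = 0.00181), Rian fell from 22.3 to 14.4 FPKM (adjusted p = 0.00358), and Mir17hg rose from 13.7 to 19.1 FPKM (adjusted p = 0.0453). Xist had 0.0442, 0.0211 and 78.8 FPKM in cHet replicates 1 to 3, against 43.5, 40.6 and 81.4 in cKO, so the X-inactivating RNA was near 0 in cHet replicates 1 and 2 alone. It was named after its values were seen, and its part in the other values was not tested.

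Of 20 tested rows inside a member or within 25 kb of it, 3 rose, 2 fell and 15 did not pass. Over all tested genes, 36.2% passed. The rows that did not pass include Snord87, Snora73a and Snora73b, already given above, and Gm22357, which lies inside Gas5. Phactr4 beside Snhg3 rose from 12.6 to 23.2 FPKM (adjusted p = 0.00494), and Zbtb37, which overlaps Gas5 on the opposite strand, rose from 1.96 to 3.07 FPKM (adjusted p = 0.0146). Prss12 beside Snhg8 fell from 2.96 to 1.84 FPKM (adjusted p = 0.0185), and Taf12 beside Snhg12 fell from 9.37 to 7.22 FPKM (adjusted p = 0.00628).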

How the data were processed

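Limb bud RNA of 2 genotypes was measured as input and m6A IP in 12 libraries. Reads were handled with fastp and HISAT2 on mm10, per the submitters' processing notes; the sources used here name no expression counter, strand setting or peak caller. For the 6 input libraries the authors deposited FPKM, per the file headers, and 0 columns of per-sample values were left out. The deposited peak lists give a log2 enrichment of IP over input and a p-value for every peak, per the file headers. Values per IP library were not used here. Peak starts in the files count from 0 (6070 cHet peaks began at a gene start once 1 was added) and are printed 1-based, on mm10.

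Levels were tested with limma 3.58.1 (R 4.3.3; lmFit, eBayes with trend) on log2(FPKM + 1) for genes averaging at least 1 FPKM over these libraries, and the fit was tested on simulated data. Fragment totals are unknown: at most 0.925% of values under 0.1 FPKM in rows with 1 transcript shared a step within 0.2%. Sums of FPKM per library ran from 261691.5 to 275299.5 (cHet) and from 237287.9 to 255907.3 (cKO). Peaks were paired by overlap on either strand. The rule for named genes took all members, up to 2 called genes per list and direction with the largest change, 3 nearest profiles for Malat1, Neat1 and Gas5, and Mettl14. Members, lists and tests were chosen with earlier results of these data known. Alternatives were other pseudocounts, filters, scalings and peak assignments, a replicate block, and each replicate left out.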

Additional observations from a re-analysis of the deposited data

How the results depend on the processing

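Under 14 alternatives the changes of Gas5, Snhg3 and Snhg4 kept their sign (or were 0.00), and no test called Malat1, Gas5, Snhg1, Snhg3, Snhg6, Snhg8 or Snhg12. Small uncalled changes turned sign. Malat1 was 0.03 after quantile normalization, and over libraries left out it ran from -0.33 to 0.06, Snhg1 from -0.03 to 0.11, Snhg6 from -0.01 to 0.08 and Snhg8 from -0.06 to 0.11. Rescaling each library to the same total moved the median change of all genes by 0.12 and the share of rises among calls from 51.6% to 73.7%. Snhg12 was then 0.04, and 3 of 10 member rows passed, where 5251 of all 13575 tested genes did. The 3 were Snhg4 at 0.31 (adjusted p = 0.0146), Snhg5 at 0.34 (adjusted p = 0.0409) and the row overlapping Matr3. The count of member calls was 0 without a filter on low values, where 31723 genes were tested. It was also 0 with the replicate block, 0 without the row overlapping Matr3 (an alternative chosen after seeing the data), and 0 to 1 when a library was left out. Without cHet replicate 1 the single call was Snhg5. The row overlapping Matr3 lost its call under 7 of 14 alternatives (adjusted p from 0.0104 to 0.11). Over all genes the calls fell from 4912 to 2889 with the replicate block and ran from 2758 without cHet replicate 2, and 3032 without cKO replicate 2, to 5109. Over the alternatives the calls ran from 2 to 8 for snoRNP proteins (6 in the report), 1 to 6 for paraspeckle proteins (2), 2 to 4 for speckle proteins (2), 1 to 7 for nonsense-mediated decay (3), 1 to 4 for nuclear decay (3), 2 to 12 for other host genes (8), 4 to 8 for other long non-coding RNAs (7) and 0 to 4 for short RNAs (0). The shared numbers gave no sign of paired samples, as deviations of same-numbered libraries correlated at -0.084, 0.04 and -0.196. Differently numbered libraries ran from -0.251 to 0.291, and 3 libraries per genotype are too few to settle pairing. Assigning peaks by position on either strand gave 27 cHet and 26 cKO peaks, many of them of Matr3. With own-strand positions and without the row overlapping Matr3, chosen after seeing the data, there were 18 and 17. Without values per IP library, no difference in enrichment could be tested.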
